A study of Homo sapiens with 2 samples.

Results

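The ERBB receptor system was followed in RKO cells, a human colorectal carcinoma line, through 10 genes chosen by symbol from the 54261 features of the deposited table. They were the receptor genes EGFR, ERBB2 and ERBB3, the ligand genes HBEGF, TGFA, AREG, BTC, EREG and NRG1, and ERRFI1, which encodes an inhibitor of the receptors. The siHNRNPM library came from RKO cells transfected with siRNA against HNRNPM, labelled as an HNRNPM knockdown. The control library came from RKO cells given the control siRNA siNC and labelled wild type. HNRNPM encodes an RNA-binding protein that takes part in pre-mRNA splicing, and the libraries were set side by side to see which transcripts differ under its knockdown. Each group was 1 RNA-seq library made from total RNA, so no difference below has a replicate check and no p-value is given. Neither the siRNA sequences nor the interval between transfection and harvest is given in the sources used here.

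ERBB receptors are tyrosine kinases of the plasma membrane that pair up when a ligand binds, phosphorylate each other and recruit adaptors that feed the RAS-ERK and PI3K-AKT pathways. Most ligands are made as membrane-bound precursors and are cut free by metalloproteases of the ADAM family. ERBB2 binds no known ligand and is the preferred partner of the others, whereas ERBB3 binds neuregulins and has a weak kinase of its own. In colorectal cancer, EGFR is a drug target, and AREG and EREG are studied as markers of the response to antibodies against it. RKO cells are known to carry activating mutations in BRAF and PIK3CA, which lie downstream of the receptors.

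Reads in genes came to 13056118 for the siHNRNPM library and 19931360 for the control library. Values are given as read counts, as CPM, the read count relative to a library size scaled by the TMM method, or as TPM, a level per length of merged exons that allows genes to be compared with each other. Every interval is a 95% counting interval, which covers counting error only and leaves out variation between cultures. A gene was called higher or lower when the interval of its siHNRNPM over control ratio excluded 1. A gene counted as measured at 1 CPM or above in either library, which held for 12925 genes. HNRNPM itself had 1042 reads (79.6 CPM) in the siHNRNPM library and 2870 reads (144 CPM) in the control library, a log2 ratio of -0.86 (-0.96 to -0.76), so its direction went with the label.

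Markers of the labelled cell type were mixed. Of 11 epithelial and intestinal markers, 9 had a read in the siHNRNPM library and 9 in the control library, and 6 were not measured. The 2 sets of 9 differed, as VIL1 had 0 reads under siHNRNPM and 1 in control, and LGALS4 had 1 and 0. KRT19 had 1 read in each library, and CLDN4 had 1 and 2. The 11 markers summed to 88.6 CPM under siHNRNPM and 80.1 CPM in control. Most of this came from KRT8 (34.4 and 27.5 CPM) and KRT18 (33.1 and 31.8 CPM). Of the 5 epithelial markers that were measured, 3 were higher, 1 was lower and 1 spanned a ratio of 1. Among all measured genes, 22.0% were higher and 26.1% lower. The epithelial adhesion gene EPCAM was higher, at 11.5 CPM in the siHNRNPM library against 9.0 CPM in the control library. Its log2 ratio was 0.36 (0.04 to 0.68). The keratin gene KRT8 was higher too, with a log2 ratio of 0.32 (0.14 to 0.50). The claudin gene CLDN3 was higher on few reads, 15 in the siHNRNPM library and 8 in the control library (log2 ratio 1.51, 0.18 to 2.96). The intestinal factor gene CDX2 was lower, with a log2 ratio of -0.40 (-0.75 to -0.05). The cadherin gene CDH1 had 1 read (0.0764 CPM) in the siHNRNPM library and 10 reads (0.503 CPM) in the control library, and the intestinal keratin gene KRT20 had 0 in both. Of 18 hepatocyte markers, 12 had a read in the siHNRNPM library and 7 in the control library, with summed levels of 35.6 and 1.11 CPM. APOA1, TTR, FGG, RBP4 and HP had 0 reads in both libraries, while ALB had 77 reads in the siHNRNPM library and 0 in the control library. AFP had 174 reads in the siHNRNPM library and 1 in the control library, and SERPINA1 had 177 and 6. These 3 were the only measured hepatocyte markers, and all 3 were at least 2-fold higher, beside 2.45% of all measured genes. The part of these transcripts in the ERBB values was not tested. Fibroblast markers summed to 4.81 CPM under siHNRNPM and 2.11 CPM in control, and endothelial markers to 0.840 and 1.36 CPM. Of 8 fibroblast markers, 3 were measured, and 2 of these were at least 2-fold higher, beside the same 2.45%. The 2 were COL1A1 (21 reads under siHNRNPM, 13 in control) and COL1A2 (14 and 8), on few reads. PDGFRA (16 and 11 reads) spanned a ratio of 1. Of 8 leukocyte markers, CD68 was higher, at 885 CPM in the siHNRNPM library against 765 CPM in the control library (log2 ratio 0.21, 0.18 to 0.25), and the pan-leukocyte gene PTPRC had 0 reads in the siHNRNPM library and 2 in the control library.

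Of the 10 genes, 6 were measured, namely EGFR, ERBB2, ERBB3, HBEGF, TGFA and ERRFI1. EGFR, ERBB3 and HBEGF were lower in the siHNRNPM library, TGFA was higher, and the intervals of ERBB2 and ERRFI1 spanned a ratio of 1. Among all measured genes 26.1% were lower and 22.0% higher, so 3 of 6 lower and 1 of 6 higher must be read against a background in which such calls are common. The balance of this background turned with the scaling, with 2849 genes higher and 3377 lower by TMM, 3350 higher and 2876 lower by upper-quartile factors, and 3138 higher and 3054 lower by TMM over protein-coding genes, while the calls of the 6 genes stayed the same. All of the 6 but TGFA had at least 500 reads over both libraries, and 31.9% of the 8624 genes at that depth were lower and 24.0% higher. None of the 6 was 2-fold or more higher or lower, a rule met by 2.45% of measured genes in the higher and 1.49% in the lower direction (0.244% and 0.186% at 500 or more reads). With the whole interval required to lie beyond 2-fold, the ERBB genes again numbered 0, beside 0.511% of measured genes higher and 0.209% lower. The median log2 ratio of the 6 was -0.11, beside -0.01 for all measured genes.

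**Figure D1:**
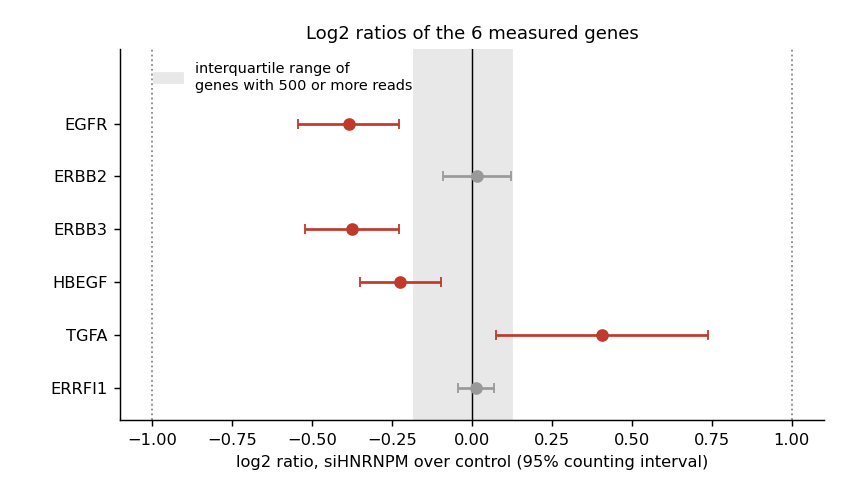
Log2 ratios (siHNRNPM over control) of the 6 measured genes, with 95% counting intervals; red marks intervals that exclude 0, grey those that span it, the band is the interquartile range of genes with 500 or more reads, and dotted lines mark a 2-fold difference. EGFR (-0.39), ERBB3 (-0.37) and HBEGF (-0.22) lie left of the band, TGFA (0.41) lies right of it with the widest interval, and no gene reaches a dotted line.

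Of the 6 measured genes, 3 hold the sequence GTGAGAA in their longest annotated 3′ UTR. This 7-base sequence was singled out in an earlier analysis of these same libraries, in which genes that hold it tended to be lower, so its presence here is a description and not independent evidence. The windows below are the 30 bases around each site on the transcript strand, from GENCODE 29 transcripts on GRCh38, with the sequence in capitals. They are shown because they belong to the receptor genes that were lower and to the ligand gene that was higher.
EGFR: gcacatgcttaGTGAGAAgactacacaaca
ERBB3: ctcatccagcaGTGAGAAgcttccaggtag
TGFA: ggggcctgcctGTGAGAAacagtgggtccc
The EGFR window lies at chr7:55207810-55207839 on the plus strand, in a 3′ UTR of 6011 bases. The ERBB3 window lies at chr12:56103337-56103366 on the plus strand, in a 3′ UTR of 1450 bases. The TGFA window lies at chr2:70449477-70449506 on the minus strand, in a 3′ UTR of 3579 bases. No match was found in the longest 3′ UTR of ERBB2 (618 bases), HBEGF (1456 bases) or ERRFI1 (1843 bases). Among all 10795 measured protein-coding genes with a 3′ UTR, 14.7% held the sequence. Of those 1586 genes, 46.3% were lower and 12.3% higher, with a median log2 ratio of -0.14, beside 25.8% lower and 23.3% higher and a median of -0.01 among the 9209 genes without it. Genes with the sequence also had longer 3′ UTRs, with a median of 3139 bases against 1209 bases, and the part of UTR length was not tested.

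EGFR, the receptor for EGF, TGFA, AREG and several other ligands, was lower in the siHNRNPM library. It had 501 reads (38.3 CPM) in the siHNRNPM library and 994 reads (50.0 CPM) in the control library. The level was 76.6% of the control level (68.6% to 85.3%), a log2 ratio of -0.39 (-0.54 to -0.23). Of the 8624 genes with at least 500 reads, 7.40% lay lower, and 95% of them fell between -0.57 and 0.47. That set includes genes with fewer reads than EGFR, whose counting error is wider. The gene lies at chr7:55019021-55211628 on the plus strand (ENSG00000146648.17). Its antisense gene EGFR-AS1 overlaps 186 bases of its exons and had 1 read in the siHNRNPM library and 0 in the control library.

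ERBB3, the neuregulin receptor whose phosphorylated tail docks PI3K, was lower by nearly the same ratio as EGFR. It had 566 reads (43.2 CPM) in the siHNRNPM library and 1115 reads (56.1 CPM) in the control library. The level was 77.1% of the control level (69.6% to 85.4%), a log2 ratio of -0.37 (-0.52 to -0.23), and 7.80% of the genes with at least 500 reads lay lower. The gene lies at chr12:56076799-56103505 on the plus strand (ENSG00000065361.15). An annotated protein-coding gene on the same strand overlaps 31 bases of its exons and was not analysed here.

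ERBB2, the receptor without a known ligand, did not differ detectably between the libraries. It had 1188 reads (90.8 CPM) in the siHNRNPM library and 1784 reads (89.7 CPM) in the control library, with a log2 ratio of 0.02 (-0.09 to 0.12). The interval leaves room for differences of up to 108.9% or down to 93.9% of the control level. The gene lies at chr17:39687914-39730426 on the plus strand (ENSG00000141736.13). The opposite-strand gene MIEN1 overlaps 571 bases of its exons and had 331 reads in the siHNRNPM library and 647 in the control library. Another opposite-strand gene, PGAP3, overlaps 194 bases and had 54 and 52 reads. The use of strand in counting was not given in the sources used here, so reads in these overlaps cannot be assigned with certainty.

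The makeup of the receptor reads therefore differed between the libraries, and this comparison does not depend on library scaling. ERBB2 took 52.6% of receptor reads in the siHNRNPM library (Wilson interval 50.5% to 54.6%) and 45.6% in the control library (44.1% to 47.2%). EGFR took 22.2% (20.5% to 23.9%) in the siHNRNPM library and 25.4% (24.1% to 26.8%) in the control library. ERBB3 took 25.0% (23.3% to 26.9%) in the siHNRNPM library and 28.5% (27.1% to 30.0%) in the control library. There were 0.422 EGFR reads per ERBB2 read in the siHNRNPM library and 0.557 in the control library, and the ratio of these was 0.757 (exact interval 0.663 to 0.864). The pairs of genes set against each other in this way, here and below, were chosen after the values were seen. For ERBB3 over ERBB2 the ratio was 0.762 (0.671 to 0.865). For EGFR over ERBB3 it was 0.993 (0.854 to 1.15), so the 2 receptor genes could not be told apart in how far they differed between the libraries. ERBB4, the fourth receptor gene and not one of the 10, had 5 reads in the siHNRNPM library and 15 in the control library, under the CPM limit for measured genes, with an interval that spanned a ratio of 1.

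**Figure D2:**
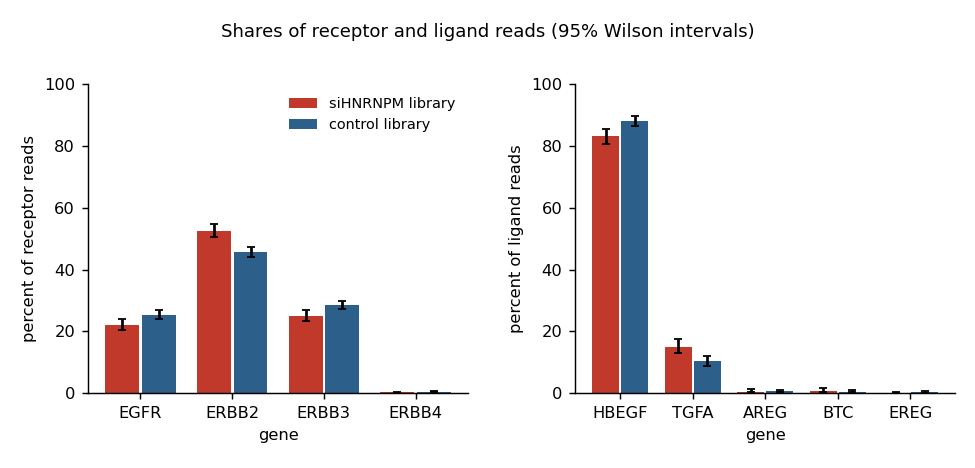
Percent of receptor reads (left) and ligand reads (right) taken by each gene in the siHNRNPM library (red) and the control library (blue), with 95% Wilson intervals as error bars. The ERBB2 share was 52.6% in the siHNRNPM library and 45.6% in the control library, and the TGFA share was 15.1% in the siHNRNPM library and 10.3% in the control library.

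HBEGF, which encodes heparin-binding EGF-like growth factor, was the most abundant ligand gene and was lower in the siHNRNPM library. It had 801 reads (61.2 CPM) in the siHNRNPM library and 1421 reads (71.5 CPM) in the control library. The log2 ratio was -0.22 (-0.35 to -0.10), or 85.6% of the control level, and 20.3% of genes with at least 500 reads lay lower. Its difference was thus close to the lower quartile of those genes, at -0.18. The gene lies at chr5:140332843-140346631 on the minus strand (ENSG00000113070.7).

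TGFA, which encodes transforming growth factor alpha, an EGFR ligand, was higher in the siHNRNPM library. It had 145 reads (11.1 CPM) in the siHNRNPM library and 166 reads (8.35 CPM) in the control library, the fewest reads of the 6 measured genes. The log2 ratio was 0.41 (0.08 to 0.74), or 132.7% of the control level (105.5% to 166.8%), so the counting error alone allowed a difference near 0. Of all measured genes, 89.3% had a lower ratio. The gene lies at chr2:70447280-70554193 on the minus strand (ENSG00000163235.15). There were 0.181 TGFA reads per HBEGF read in the siHNRNPM library and 0.117 in the control library, a ratio of 1.55 (exact interval 1.21 to 1.98). TGFA made up 15.1% of all ligand reads in the siHNRNPM library (13.0% to 17.5%) and 10.3% in the control library (8.90% to 11.9%), whereas HBEGF made up 83.3% (80.8% to 85.5%) and 88.1% (86.4% to 89.6%).

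The other 4 ligand genes had too few reads for a comparison. AREG, encoding amphiregulin, had 5 reads in the siHNRNPM library and 10 in the control library, with a log2 ratio of -0.40 (-2.30 to 1.29). BTC, encoding betacellulin, had 8 reads in each library, with a log2 ratio of 0.60 (-1.01 to 2.22). EREG, encoding epiregulin, had 0 reads in the siHNRNPM library and 5 in the control library (0.251 CPM), and the upper bound of its log2 ratio was 0.73, above 0, so a difference was not detectable at this depth. NRG1, encoding the ERBB3 and ERBB4 ligand neuregulin 1, had 0 reads in both libraries, which allows up to 0.229 CPM under siHNRNPM and 0.151 CPM in control. The further ligand genes EGF, EPGN, NRG2, NRG3 and NRG4 had at most 1 read in either library. AREG, BTC and EREG lie on chromosome 4, at chr4:74445134-74455009, chr4:74744759-74794686 and chr4:74365143-74388751, in the order EREG, AREG, BTC along the chromosome, and all had 10 reads or fewer in each library.

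ERRFI1, also called MIG6, encodes a feedback inhibitor that binds the kinase domain of EGFR, and it was the most abundant of the 10 genes. It had 4340 reads (332 CPM) in the siHNRNPM library and 6538 reads (329 CPM) in the control library. The log2 ratio was 0.01 (-0.04 to 0.07), or 100.8% of the control level (97.0% to 104.8%). The interval was the narrowest of the 6. There were 8.66 ERRFI1 reads per EGFR read in the siHNRNPM library and 6.58 in the control library, a ratio of 1.32 (exact interval 1.17 to 1.48). The gene lies at chr1:8004404-8026308 on the minus strand (ENSG00000116285.12), and an annotated antisense gene that overlaps 155 bases of its exons was not analysed here.

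Compared per length, the 10 genes spanned several orders of magnitude, and the order of the 6 measured genes was the same in both libraries. ERRFI1 had 342 TPM in the siHNRNPM library and 345 TPM in the control library. HBEGF came next with 87.6 TPM in the siHNRNPM library and 104 TPM in the control library, followed by ERBB2 with 38.0 and 38.2 TPM. ERBB3 had 20.7 TPM in the siHNRNPM library and 27.3 TPM in the control library. The last of the receptor genes, EGFR, had 13.2 TPM in the siHNRNPM library and 17.5 TPM in the control library. TGFA had 9.64 TPM in the siHNRNPM library and 7.39 TPM in the control library, below every receptor gene of the 10. The counting intervals of neighbours among these 6 did not overlap within a library. AREG (1.0 TPM in the siHNRNPM library, 1.34 TPM in the control library) and BTC (0.938 and 0.628 TPM) overlapped in their intervals, and EREG had 0 TPM in the siHNRNPM library and 0.193 TPM in the control library. The order of the 6 stayed the same when length was taken from the longest annotated transcript, although ERBB2 then had 57.1 TPM in the siHNRNPM library and 57.6 TPM in the control library.

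**Figure D3:**
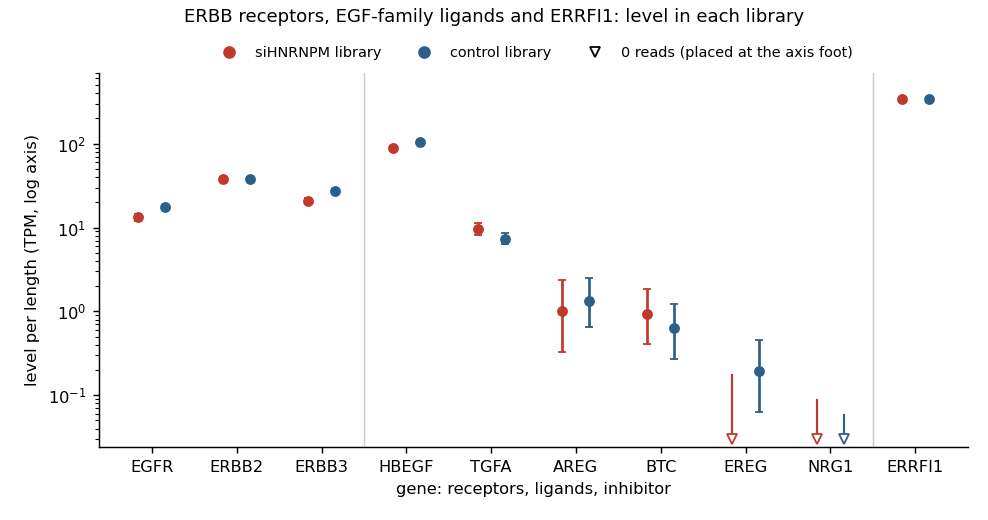
Level per length (TPM, log axis) of the 10 genes in the siHNRNPM library (red) and the control library (blue), with 95% counting intervals; open triangles mark 0 reads and are drawn at the foot of the axis, with a line up to the limit that a count of 0 allows (3 counts). ERRFI1 and HBEGF stand highest, the receptor genes lie between 13.2 and 38.2 TPM, and AREG, BTC, EREG and NRG1 lie far below TGFA.

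Genes that act on the ligands included higher and lower ones. Of 12 genes of ligand shedding and trafficking, 7 were measured, of which 3 were higher, 3 were lower and 1 spanned a ratio of 1, with a median log2 ratio of 0.13, beside 22.0% higher and 26.1% lower among all measured genes and a median of -0.01. These shares of all measured genes (31.9% lower and 24.0% higher at 500 or more reads) apply to each list that follows. RHBDF1, encoding an iRhom pseudoprotease that escorts ADAM17 to the cell surface, had 614 reads in the siHNRNPM library and 1199 in the control library. Its log2 ratio was -0.36 (-0.50 to -0.22). The other iRhom gene, RHBDF2, had 147 and 182 reads, a log2 ratio of 0.30 (-0.03 to 0.62), and was chosen after its value was seen. ADAM10, the main sheddase of EGF and betacellulin, had 1965 and 3695 reads, a log2 ratio of -0.31 (-0.39 to -0.23). FRMD8, which stabilises iRhoms, had 365 and 453 reads, a log2 ratio of 0.29 (0.09 to 0.49). ADAM17, the main sheddase of HBEGF, TGFA and AREG, had a log2 ratio of 0.16 (0.08 to 0.24) and was chosen after its value was seen.

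Among adaptors and effectors of receptor signalling, 15 of 16 genes were measured. Of these, 8 were lower, 2 were higher and 5 spanned a ratio of 1, set against 26.1% lower and 22.0% higher over all measured genes. Their median log2 ratio was -0.15. GAB1, a docking protein that links receptors to PI3K and SHP2, had 120 reads (9.17 CPM) in the siHNRNPM library and 344 reads (17.3 CPM) in the control library, a log2 ratio of -0.92 (-1.23 to -0.61). EPS8, an EGFR substrate that acts on the actin cytoskeleton, had 420 and 856 reads, a log2 ratio of -0.42 (-0.60 to -0.25). SHC1, an adaptor between phosphorylated receptors and GRB2, had 4800 and 9489 reads, a log2 ratio of -0.38 (-0.43 to -0.33). GRB2 itself had -0.12 (-0.20 to -0.04) and PTPN11, encoding SHP2, had -0.01 (-0.06 to 0.05), both chosen after their values were seen.

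Genes listed under receptor down-regulation went both ways. Of 21, 20 were measured, of which 8 were lower, 4 were higher and 8 spanned a ratio of 1, with a median log2 ratio of -0.06, set against 26.1% lower and 22.0% higher over all measured genes. LRIG1, a membrane protein that promotes loss of ERBB receptors, had 55 reads (4.20 CPM) in the siHNRNPM library and 180 reads (9.05 CPM) in the control library. Its log2 ratio was -1.11 (-1.57 to -0.66), which passed the 2-fold rule. PTPN1, encoding the tyrosine phosphatase PTP1B, had 2002 and 4718 reads, a log2 ratio of -0.63 (-0.71 to -0.56). SOCS5, which promotes EGFR degradation, had 336 and 779 reads, a log2 ratio of -0.61 (-0.80 to -0.42). The ubiquitin ligase gene CBLB and its relative CBL were chosen after their values were seen. CBLB had 5029 reads in the siHNRNPM library and 5314 in the control library, a log2 ratio of 0.52 (0.47 to 0.58), while CBL had -0.21 (-0.27 to -0.15).

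In the RAS-RAF-MEK-ERK list, 13 of 14 genes were measured, of which 7 were lower, 1 was higher and 5 spanned a ratio of 1, with a median log2 ratio of -0.14, set against 26.1% lower and 22.0% higher over all measured genes. The kinase gene BRAF had 1447 reads (111 CPM) in the siHNRNPM library and 3165 reads (159 CPM) in the control library, a log2 ratio of -0.53 (-0.62 to -0.44). NF1, a RAS GTPase-activating protein, had -0.30 (-0.39 to -0.21), and ARAF had -0.23 (-0.41 to -0.04). The higher gene was the MEK gene MAP2K1 at 0.10 (0.02 to 0.17), chosen after its value was seen.

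The PI3K-AKT list had the lowest median of the 6 pathway lists with a measured gene. All 16 genes were measured, of which 12 were lower, 2 were higher and 2 spanned a ratio of 1, with a median log2 ratio of -0.28, beside -0.01 for all measured genes and 26.1% of them lower. PIK3CD, a PI3K catalytic subunit, had 260 and 679 reads, a log2 ratio of -0.78 (-0.99 to -0.57). PIK3R3, a regulatory subunit, had 129 and 320 reads, a log2 ratio of -0.71 (-1.01 to -0.41). MTOR, the kinase of the mTOR complexes downstream of AKT, had 826 and 1973 reads, a log2 ratio of -0.65 (-0.77 to -0.53). AKT1 had 2147 reads in the siHNRNPM library and 2423 in the control library, a log2 ratio of 0.43 (0.34 to 0.51), and AKT2 had -0.12 (-0.22 to -0.03). AKT1 and AKT2, which encode AKT kinases, were chosen after their values were seen.

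Of the 18 genes that report or damp ERK output, 17 were measured, of which 11 were lower, 2 were higher and 4 spanned a ratio of 1, with a median log2 ratio of -0.21, set against 26.1% lower and 22.0% higher over all measured genes. CCND1, encoding cyclin D1, was at 41.4% of the control level with a log2 ratio of -1.27 (-1.37 to -1.17) and passed the 2-fold rule. The ETS factor gene ETV1 had 249 and 584 reads, a log2 ratio of -0.63 (-0.85 to -0.41), and the immediate early gene EGR1 had 384 and 877 reads, a log2 ratio of -0.59 (-0.76 to -0.41). Chosen after their values were seen, the ERK phosphatase genes DUSP6 and DUSP5 had -0.44 (-0.52 to -0.35) and -0.42 (-0.50 to -0.35). SPRY2, a feedback inhibitor of receptor signalling, had 0.30 (0.17 to 0.42), and MYC had 0.19 (0.13 to 0.25), both also chosen after their values were seen.

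**Figure D4:**
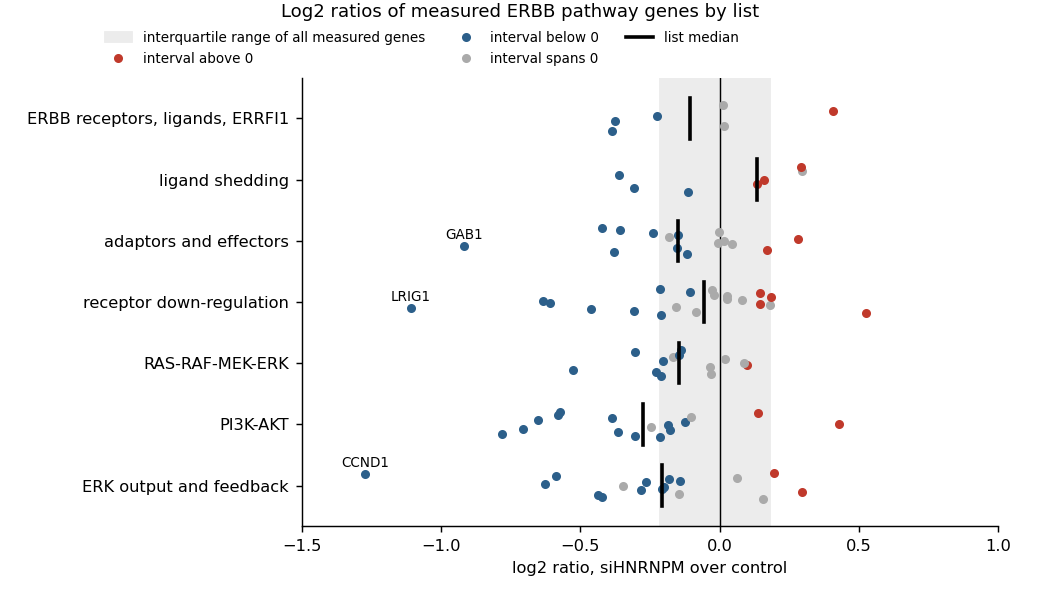
Log2 ratios (siHNRNPM over control) of the measured genes in each list, 1 point a gene; red and blue mark intervals above and below 0, grey marks intervals that span it, black bars are list medians and the band is the interquartile range of all measured genes. The PI3K-AKT median lies at -0.28 and that of ligand shedding at 0.13, and CCND1 has the lowest value at -1.27.

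The sequence GTGAGAA was also common in the 3′ UTRs of these pathway genes. Of the 88 measured genes in the lists, 29.5% held it, beside 14.7% of all measured protein-coding genes, and their 3′ UTRs were longer, with a median of 3707 bases for the 26 with it and 2082 bases for the 62 without it. Of the 26, 18 were lower and 2 higher, with a median log2 ratio of -0.22. Over all measured protein-coding genes that hold the sequence, 46.3% were lower and 12.3% higher. Of the 62 without it, 31 were lower and 12 higher, with a median of -0.14. Over all measured protein-coding genes without it, 25.8% were lower and 23.3% higher. Because the sequence was singled out in these same libraries, these counts are a description and not independent evidence. The part of UTR length was not tested. SHC1, MTOR, CCND1 and DUSP6, all lower, and PTPN11, which spanned a ratio of 1, also held the sequence, but their windows are not shown. As examples, the windows of 4 other named genes that were lower, and of CBLB, which was higher, follow. They are shown in the same way as those of EGFR, ERBB3 and TGFA.
GAB1: ggatacacacaGTGAGAAagatacatgcat
PTPN1: ttgtgggtaacGTGAGAAgatagaacaatg
BRAF: cagttttgaatGTGAGAAatttagataatt
PIK3CD: gtaccagaagtGTGAGAAcgagggggcgtg
CBLB: gaaaatttccaGTGAGAAttaaaaaaggac
They lie at chr4:143472789-143472818 (GAB1, plus strand), chr20:50583340-50583369 (PTPN1, plus strand), chr7:140725522-140725551 (BRAF, minus strand), chr1:9728213-9728242 (PIK3CD, plus strand) and chr3:105656664-105656693 (CBLB, minus strand). LRIG1, SOCS5, EPS8, PIK3R3, ETV1 and EGR1, all lower, had no match in their longest 3′ UTR. The same held for RHBDF1, ADAM10, NF1, ARAF, GRB2, CBL, AKT2 and DUSP5, which were also lower.

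**Figure D5:**
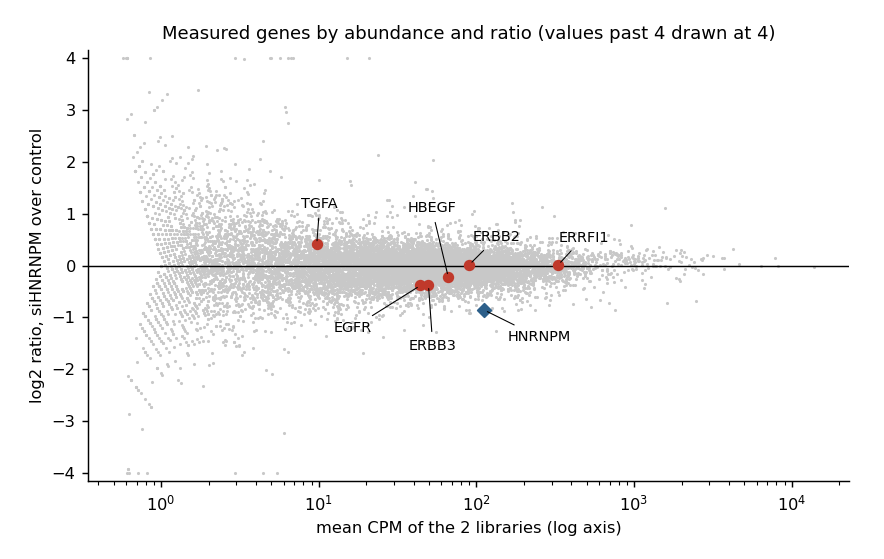
Mean CPM of the 2 libraries (log axis) against the log2 ratio of siHNRNPM over control for all 12925 measured genes (grey), with the 6 measured ERBB genes (red circles) and HNRNPM (blue diamond). EGFR and ERBB3 lie at the lower side of the cloud, ERBB2 and ERRFI1 near 0, TGFA above it at lower abundance, and HNRNPM (-0.86) at the lower edge of the cloud.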

How the data were processed

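RNA-seq was available as 1 table with 1 library of siHNRNPM RKO cells and 1 of control RKO cells, each tied to its column by title. The deposited values are raw read counts, whole numbers listed by gene symbol. HISAT2 2.0.4 and GRCh38 are listed without a role, per the submitters' processing notes; the counter, annotation and handling of strand and multi-mapped reads are not given in the sources used here. Counts were scaled by TMM (edgeR 4.0.16, R 4.3.3; factors 1.002 and 0.998). Log2 ratios carry exact Clopper-Pearson intervals (scipy 1.17.1) of the split of a gene's reads; a count of 0 was set to 0.5. Limits for a count of 0 use 3 counts. The procedure was tested on simulated data that held counting error only, with planted differences larger than those of the measured ERBB genes. That test does not cover variation between cultures. Lengths, positions and 3′ UTRs came from GENCODE 29.

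The members and lists were chosen with earlier results of these data known. A gene of the PI3K-AKT list is not reported here and is left out of the list. The text names all 10 members, HNRNPM and, per list, up to 3 genes furthest from 0 in log2 ratio, in either direction, with an interval off a ratio of 1 and at least 5 CPM in either library. Further genes of the measured lists, marked as such where they appear, were chosen after their values were seen. Alternatives were other scalings (DESeq2 1.42.0 size factors among them), CPM filters, a prior count, other fold rules and another gene length. PCR reads are not independent molecules.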

Additional observations from a re-analysis of the deposited data

How the results depend on the processing

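EGFR, ERBB3 and HBEGF stayed lower and TGFA higher with total-count, DESeq2, upper-quartile and protein-coding-only TMM scaling, without a CPM filter, at a CPM of 5 or more and with a prior count of 2. Across these settings the log2 ratio ran from -0.39 to -0.35 for EGFR, from -0.38 to -0.34 for ERBB3, from -0.23 to -0.19 for HBEGF and from 0.40 to 0.44 for TGFA. No measured ERBB gene of the 10 reached 1.5-fold or 2-fold. The pathway list medians and counts stayed within 0.1 and 1.5 times, also without genes that have a copy outside the primary assembly, a setting chosen after seeing the data. Counts over all measured genes moved more. There were 317 genes at least 2-fold higher and 193 lower, against 602 and 301 without a CPM filter (21623 genes), 70 and 50 at a CPM of 5 or more, 66 and 27 with the whole interval beyond 2-fold, and 646 and 589 at 1.5-fold. No replicate could be left out and no paired analysis was possible because each group has 1 library. Depth limits AREG, BTC, EREG and NRG1 most.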
